A study of Mus musculus with 72 samples.

Results

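Tissue-resident macrophages live for long periods in an organ, where they take up dying cells, scavenge proteins from blood and lymph and bind microbes. In epididymal white adipose tissue (eWAT) they line vessels and surround adipocytes, and in the liver they are the Kupffer cells of the sinusoids. A fatty diet is known to bring monocyte-derived macrophages into adipose tissue beside the resident cells, so genes of the resident cells and genes of the newcomers need not move together. The 9 genes described here, Lyve1, Timd4, Mrc1, Cd163, Folr2, F13a1, Clec4f, Vsig4 and Marco, were chosen by name as known markers of resident macrophages, out of 55416 genes counted. They are referred to as resident macrophage genes, and were chosen with earlier results of these data known.

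RNA was sequenced from the pituitary, liver and eWAT of 24 adult male mice of the strain FVB.129P2-Pde6b+ Tyrc-ch/AntJ, a sighted FVB line, which gave 72 libraries. Dams either ate freely (FED) or received 20% less food (CR20) from embryonic day 15 through lactation, and all pups were weaned on postnatal day 21. From 8 weeks of age the males ate a 10% fat diet (CTRL) or a 45% fat diet (HFD), for 4 groups of 6 mice: FED-CTRL, FED-HFD, CR20-CTRL and CR20-HFD. The labels name 10 or 16 weeks on the diet, and the study's text gives 10 weeks for the sequenced males. The labels do not say which mice were littermates, so the p-values measure the spread between these mice. In whole tissue, fewer cells of a type and less RNA per cell cannot be told apart.

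Library totals were 11589675 to 22364963 counts in eWAT, 9842813 to 19928212 in liver and 18299494 to 27601208 in pituitary, and no pair of libraries within a group was identical. The tissue labels fit the markers: summed CPM (counts per 1000000 counts) of 6 adipocyte genes were 9489 to 32323 in eWAT, those of 5 hepatocyte genes 66012 to 113129 in liver, and those of 6 pituitary hormone cell genes 231982 to 409236 in pituitary. In 5 eWAT libraries the hepatocyte gene Apoa1 was over 10 CPM or the epididymis gene Adam7 over 1 CPM. Apoa1 was at 110 CPM in FED-HFD mouse 10, 14.9 in FED-HFD mouse 13 and 41.4 in CR20-CTRL mouse 5. Adam7 was at 133 CPM in CR20-CTRL mouse 4, 51.9 in CR20-CTRL mouse 5 and 4.31 in CR20-HFD mouse 6. The eWAT comparisons were therefore also run without these 5 libraries. High sums of the 5 hepatocyte genes were not limited to them. The sum reached 945 CPM in CR20-CTRL mouse 33 and 982 in CR20-HFD mouse 32, which were kept. Apoa1 was at 10 CPM or less in mouse 33 and mouse 32, so these sums came mostly from other genes of the list. Whether they came from hepatocyte RNA was not tested. The highest FED-HFD sum was 762 CPM, in mouse 10.

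The 9 genes code for receptors and a coagulation enzyme subunit. Mrc1 is the mannose receptor CD206, Cd163 the haemoglobin-haptoglobin scavenger receptor, Lyve1 a hyaluronan receptor shared with lymphatic endothelium, and Folr2 a folate receptor. Timd4 (TIM-4) binds phosphatidylserine on dying cells, Vsig4 is a complement receptor, Marco a class A scavenger receptor and Clec4f a C-type lectin that marks mouse Kupffer cells. F13a1 codes for the A subunit of coagulation factor XIII. In GRCm39 the genes lie at Mrc1 chr2:14234151-14336926 (+, ENSMUSG00000026712), Folr2 chr7:101489195-101506401 (-, ENSMUSG00000032725), Cd163 chr6:124281606-124307560 (+, ENSMUSG00000008845), Lyve1 chr7:110448585-110462460 (-, ENSMUSG00000030787) and F13a1 chr13:37051152-37234277 (-, ENSMUSG00000039109). The genes led by liver lie at Clec4f chr6:83621524-83633169 (-, ENSMUSG00000014542), Vsig4 chrX:95290807-95337044 (-, ENSMUSG00000044206) and Marco chr1:120402267-120432753 (-, ENSMUSG00000026390), and Timd4 at chr11:46701620-46735177 (+, ENSMUSG00000055546). The 250 bases before the transcript start of 4 of them are shown, because Mrc1 and Folr2 followed each other closest across eWAT libraries, Marco was the member called in liver, and Clec4f separated liver from the other tissues. Capitals mark GAGGAA, a word of PU.1 binding sites, or TGCTGA, a core word of MAF sites, searched on both strands, so that on the printed strand they also read TTCCTC and TCAGCA. The words could share their GA, but no matches overlapped in these genes. The sequences are 5′ to 3′ on the strand of the gene, from GRCm39, and the start is that of the canonical transcript in GENCODE M39: Mrc1 chr2:14233901-14234150 (+), Folr2 chr7:101494556-101494805 (-, a start that lies within the annotated span of the gene, since other transcripts begin further upstream), Marco chr1:120432754-120433003 (-) and Clec4f chr6:83633170-83633419 (-).
Mrc1: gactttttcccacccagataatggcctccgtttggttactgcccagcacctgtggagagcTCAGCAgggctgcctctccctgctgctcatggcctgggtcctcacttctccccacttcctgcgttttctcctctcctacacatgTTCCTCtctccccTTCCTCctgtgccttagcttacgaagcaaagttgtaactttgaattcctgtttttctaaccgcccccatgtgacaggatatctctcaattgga
Folr2: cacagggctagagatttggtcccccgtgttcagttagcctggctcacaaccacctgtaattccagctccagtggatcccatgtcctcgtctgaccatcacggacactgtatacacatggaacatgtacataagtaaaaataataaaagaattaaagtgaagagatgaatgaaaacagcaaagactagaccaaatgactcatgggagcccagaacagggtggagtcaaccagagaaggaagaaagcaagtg
Marco: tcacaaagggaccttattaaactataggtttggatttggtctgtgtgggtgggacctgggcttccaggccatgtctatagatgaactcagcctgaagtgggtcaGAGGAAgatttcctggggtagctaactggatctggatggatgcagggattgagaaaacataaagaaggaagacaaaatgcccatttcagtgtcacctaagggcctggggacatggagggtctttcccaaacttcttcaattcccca
Clec4f: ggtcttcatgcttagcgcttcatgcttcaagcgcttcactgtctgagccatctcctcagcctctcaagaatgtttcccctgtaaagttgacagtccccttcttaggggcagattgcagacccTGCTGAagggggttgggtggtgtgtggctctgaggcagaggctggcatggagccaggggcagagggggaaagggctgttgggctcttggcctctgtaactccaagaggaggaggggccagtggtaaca
GAGGAA was present in 3 of the 9 promoters (Mrc1, Vsig4 and Marco), against 23.1% of 21616 promoters of the same length. TGCTGA was present in 3 of 9 (Timd4, Mrc1 and Clec4f), against 14.4%. Of the 9, Mrc1 was the one with both words, 2 matches of the first and 1 of the second, and Folr2 had neither.

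Each tissue had its own ranking of the 9 genes. Per exon length, in RPKM (CPM per 1000 exon bases), the eWAT order by median over 24 libraries was F13a1 at 18.6 (SD 3.73), Mrc1 at 14 (SD 6.38), Cd163 at 7.85 (SD 1.61), Lyve1 at 6.69 (SD 2.95), Folr2 at 6.18 (SD 2.63), Timd4 at 4.6 (SD 3.24), Vsig4 at 4.16 (SD 2.08) and Marco at 3.62 (SD 3.67). Neighbours in this order differed by less than the larger of their SDs, and Mrc1 and Cd163 overlapped in range, 7.63 to 41 against 4.89 to 11 RPKM. Clec4f was at 0 counts in 18 of 24 eWAT libraries, with 35 counts in all. Of those, 17 came from FED-HFD mouse 10 and 7 from CR20-CTRL mouse 5, both among the libraries over the Apoa1 limit. The part of hepatocyte RNA in the Clec4f counts was not tested. The plot of levels by tissue shows these values.

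In liver the order was led by Clec4f, at a median of 50.4 RPKM (SD 14.9), followed by Vsig4 at 20.3 (SD 5.05) and Marco at 10 (SD 5.28). Each of these 3 differed from the next by more than the larger SD. They were followed by Mrc1 at 3.4 (SD 0.849) and Timd4 at 3.31 (SD 0.754), which did not differ from each other beyond their spread. Folr2 at 1.02 RPKM, Lyve1 at 0.492, Cd163 at 0.305 and F13a1 at 0.0214 came last. F13a1, the highest of the 9 in eWAT, had 56 counts over all 24 liver libraries and 0 in 7 of them. In pituitary, Mrc1 was highest at 0.492 RPKM (SD 0.152), and the medians of the other 8 were 0.0841 RPKM (Folr2) or lower. Clec4f had 0 counts in all 24 pituitary libraries, where a count of 0 allows up to 0.109 to 0.164 CPM depending on the library, and Vsig4 had 1 count. These limits cover counting error only.

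**Figure D1:**
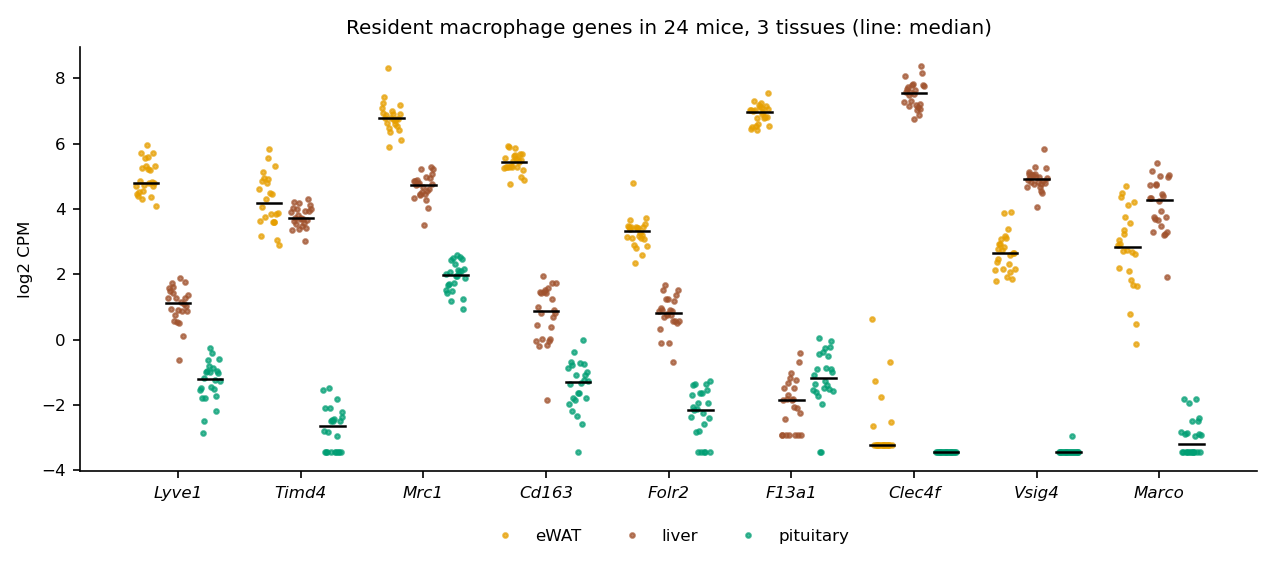
Level of the 9 resident macrophage genes by tissue, 24 libraries each, in CPM scaled within each tissue, on a log axis. Clec4f, Vsig4 and Marco had their highest medians in liver (186, 30.2 and 19.3 CPM), F13a1 and Mrc1 in eWAT (126 and 109 CPM), and the pituitary was lowest, or level with eWAT for Clec4f, for all but F13a1.

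Differences between tissues were tested on log2 CPM scaled over all 72 libraries, by a two-sided permutation test over 27 gene and tissue pairs. The test passed at a Benjamini-Hochberg adjusted p below 0.05 in 26 of them, most at the smallest p that 100000 resamples can give (1e-05, adjusted 1.12e-05 by permutation). One of the 26, Clec4f in eWAT over pituitary, had a log2 difference of 0.42 (adjusted permutation p = 0.0231). It rests on the 35 counts described above, from 6 of 24 eWAT libraries. Higher in eWAT than in liver were F13a1 by 8.57, Cd163 by 3.97, Lyve1 by 3.20, Folr2 by 1.80 (all in 24 of 24 mice) and Mrc1 by 1.39 on the log2 scale (23 of 24 mice). Clec4f was lower in eWAT than in liver, with a log2 difference of -10.82, as were Vsig4 with -2.99 (both in 24 of 24 mice) and Marco with -2.11 (22 of 24 mice). Timd4 was the pair that missed the threshold, at -0.25 (adjusted permutation p = 0.166, lower in eWAT in 15 of 24 mice), and its direction turned to 0.49 (adjusted permutation p = 0.00639) with CPM taken from library totals. The lowest liver Clec4f level, 114 CPM by library totals, was at least 697-fold higher than the highest pituitary limit of 0.164 CPM.

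The effect of the diet and of the dams' feeding was tested within each tissue in edgeR's quasi-likelihood test over all genes. A gene was called at a Benjamini-Hochberg adjusted p of 0.055 or less with a log2FC of 0.58 or more (or -0.58 or less). These are the thresholds of the study's methods, while its gene counts for eWAT and liver used a log2FC limit of 1. Enough counts for the test were present for 8 of the 9 genes in eWAT (not Clec4f), 8 in liver (not F13a1) and 3 in pituitary (Mrc1, Cd163 and F13a1). Each group enters 2 of the comparisons, so FED-HFD vs FED-CTRL shares its FED-HFD mice with CR20-HFD vs FED-HFD.

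In eWAT, Mrc1 was the resident macrophage gene that moved with the diet in FED offspring. Its level was 88.9 to 121 CPM (median 108) in FED-CTRL and 124 to 321 CPM (median 144) in FED-HFD. In CR20-CTRL it was 85.7 to 146 CPM (median 108), and in CR20-HFD 59.7 to 121 CPM (median 89.1). All 6 FED-HFD mice were above all FED-CTRL and all CR20-HFD mice, and the highest value belonged to FED-HFD mouse 23. The share of all genes tested whose groups separate in this way is not given here, so the separation is a description of Mrc1 alone. Mrc1 rose 1.6-fold in FED-HFD vs FED-CTRL (log2FC 0.68, SE 0.201, adjusted p = 0.0316 in edgeR), and the exact two-sided permutation test gave p = 0.00216, the smallest that 6 against 6 mice allow. In CR20-HFD vs FED-HFD, Mrc1 fell 1.94-fold (log2FC -0.95, SE 0.202, adjusted p = 0.00301 in edgeR, exact permutation p = 0.00216). The diet difference in CR20 offspring was a log2FC of -0.29 (SE 0.201, adjusted p = 0.932 in edgeR), and CR20-CTRL vs FED-CTRL gave 0.02 (SE 0.2, adjusted p = 0.996 in edgeR). The difference between the diet effects, the interaction, was -0.97 (SE 0.284) and missed the threshold (adjusted p = 0.0702 in edgeR), so the diet effect is not shown to depend on the dams' feeding. Without FED-HFD mouse 23, the Mrc1 difference between the diets of FED offspring had a log2FC of 0.41 and was no longer called (adjusted p = 0.127 in edgeR), while CR20-HFD vs FED-HFD stayed called at -0.68 (adjusted p = 0.00548 in edgeR). The first call was also lost without FED-CTRL mouse 16, 24 or 42 (adjusted p = 0.063, adjusted p = 0.0657 and adjusted p = 0.0633 in edgeR). It was lost with the study's own test, limma voom with quality weights, where the log2FC of 0.46 was under the minimum (adjusted p = 0.00944), and in edgeR on these 12 libraries alone (adjusted p = 0.0605). At a log2FC limit of 1, that of the study's eWAT gene counts, Mrc1 was called in neither comparison with FED-HFD.

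The other 7 resident macrophage genes tested in eWAT were not called in either comparison with FED-HFD. With Mrc1, this makes 1 of 8 called higher in FED-HFD vs FED-CTRL, where 6.42% of the 15964 genes tested were called higher, 1.58% lower and 8.01% in either direction. It makes 1 of 8 called lower in CR20-HFD vs FED-HFD, where 2.45% of all genes were called higher, 7.29% lower and 9.73% in either direction. The median log2FC over the 8 was -0.21 in FED-HFD vs FED-CTRL. It was 0.04 for CR20-HFD vs FED-HFD, beside medians of -0.00 and 0.02 over all genes tested. For CR20-HFD vs CR20-CTRL, as for CR20-CTRL vs FED-CTRL, 0 of 8 were called by edgeR and 0 had an unadjusted p under 0.05, and 0 were called by limma voom or DESeq2. Of all genes, edgeR called 0% in these comparisons, with 962 and 1180 at an unadjusted p under 0.05. The interaction gave 0 of 8 (1 at an unadjusted p under 0.05, and 1 by DESeq2, Mrc1 in both), against 2.42% of all genes (0.0877% higher and 2.34% lower).

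Folr2 had values close in shape to those of Mrc1. It was at 7.43 to 10.7 CPM (median 9.58) in FED-CTRL, 8.78 to 27.5 (median 10.9) in FED-HFD, 5.97 to 11.5 (median 9.93) in CR20-CTRL and 5 to 13.2 (median 7.81) in CR20-HFD. The groups overlapped, and mouse 23 was again the highest. CR20-HFD vs FED-HFD gave a log2FC of -0.70 (SE 0.245, adjusted p = 0.0552 in edgeR, exact permutation p = 0.0476), just outside the threshold, and FED-HFD vs FED-CTRL gave 0.53 (SE 0.243, adjusted p = 0.173 in edgeR). Without mouse 23 the log2FC values were -0.36 and 0.19. Folr2 shares 975 exon bases with the antisense gene Gm10602, and the strand setting of the counting is not stated, so its counts are uncertain.

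Cd163 and F13a1 varied least between eWAT libraries, with a coefficient of variation of 20.4% and 20.6% over the 24. Cd163 was at 39 to 60.8 CPM (median 52.3) in FED-CTRL, 27.1 to 50.4 (median 39.1) in FED-HFD, 31.5 to 51.1 (median 47) in CR20-CTRL and 29.4 to 46.2 (median 38.5) in CR20-HFD. F13a1 was at 111 to 160 CPM (median 134), 87.2 to 140 (median 111), 111 to 145 (median 124) and 85 to 188 (median 108) in the same order. The groups of both genes overlapped. In FED-HFD vs FED-CTRL, Cd163 had a log2FC of -0.33 (SE 0.151, adjusted p = 0.163 in edgeR) and F13a1 of -0.28 (SE 0.163, adjusted p = 0.283 in edgeR). Their values are thus opposite in sign to that of Mrc1, and a difference between these genes was not tested.

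Lyve1 was at 23.1 to 51.8 CPM (median 37.6) in FED-CTRL, 19.7 to 62.7 (median 22.4) in FED-HFD, 20.4 to 52 (median 27.9) in CR20-CTRL and 17 to 47 (median 32) in CR20-HFD. Of the FED-HFD mice, 5 were at 19.7 to 26 CPM and mouse 40 at 62.7. The log2FC of FED-HFD vs FED-CTRL was -0.38 (SE 0.29, adjusted p = 0.434 in edgeR). Without mouse 40 it was -0.77 and called lower (adjusted p = 0.0436 in edgeR). The same mouse had the highest sums of its group for 4 mesothelial genes (697 CPM, against 132 in the lowest mouse), 6 lymphatic endothelial genes (44.4 against 18) and 5 lymphocyte genes (77.3 against 4.5). Over the 24 eWAT libraries, the correlation of Lyve1 with the mean of each list (Pearson r of log2 CPM) was 0.45 for mesothelial, -0.30 for lymphatic endothelial and 0.37 for lymphocyte genes. The part of these cells in the Lyve1 values was not tested.

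Timd4, Vsig4 and Marco spread widely within every eWAT group. Timd4 reached from 14.3 to 35 CPM in FED-CTRL, 8.96 to 56.7 in FED-HFD, 8.12 to 39.7 in CR20-CTRL and 7.43 to 47 in CR20-HFD. Marco reached from 1.6 to 22.3 CPM in FED-CTRL, 4.45 to 17.2 in FED-HFD, 0.798 to 18.2 in CR20-CTRL and 1.28 to 26.1 in CR20-HFD. Vsig4 lay between 3.38 and 15.1 CPM over all groups. The coefficient of variation was 58.1% for Timd4 and 77.3% for Marco, and the standard error of Marco's log2FC in FED-HFD vs FED-CTRL was 0.655, so that a change of the size seen for Mrc1 was not detectable for it.

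**Figure D2:**
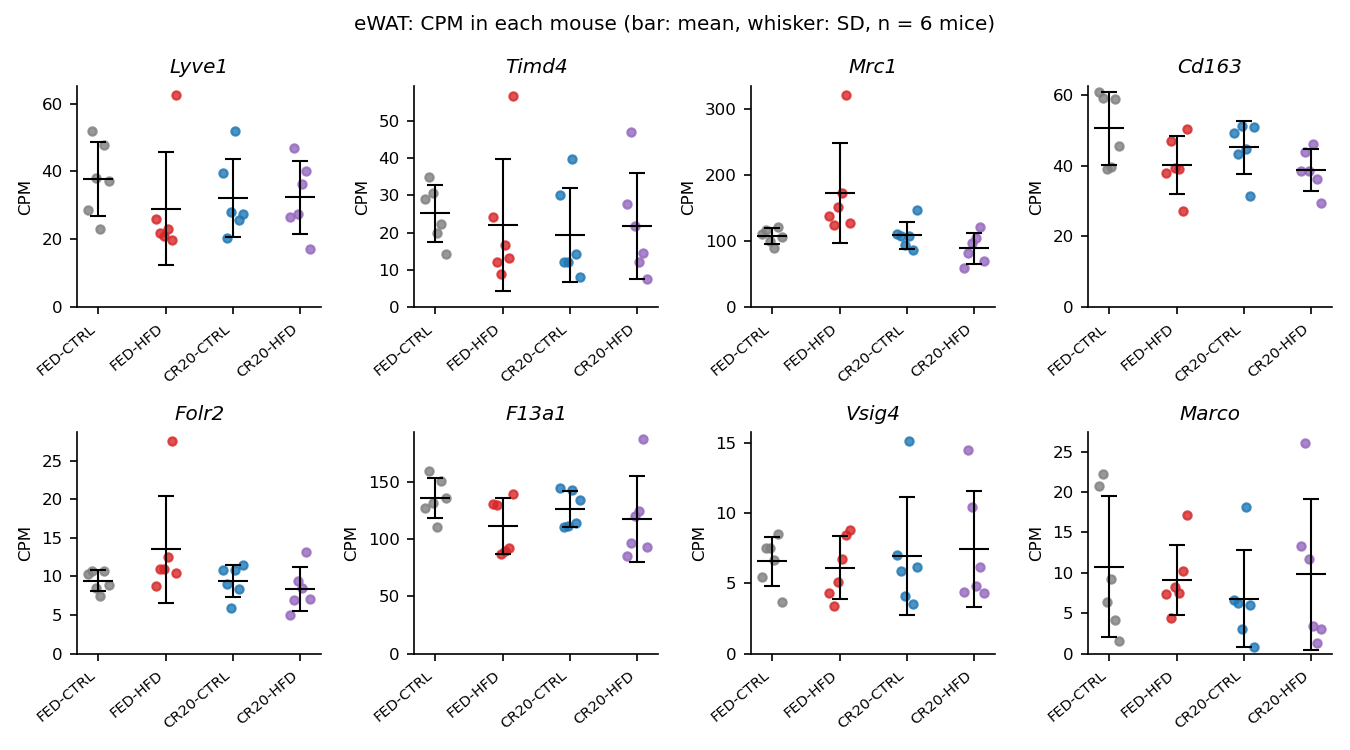
CPM of the 8 resident macrophage genes tested in eWAT, 1 point per mouse and 6 mice per group. Mrc1 in FED-HFD (124 to 321 CPM) lay above FED-CTRL and CR20-HFD, whereas the groups of the other genes overlapped.

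Lists of general and of recruited macrophage genes are given beside the members for the same libraries, with no test of a difference between lists. The lists were written with earlier results of these data known. Cd68 of the general list, and Cd84 and Mmp12 of the recruited list, were reported by the study as higher in FED-HFD and lower in CR20-HFD eWAT. The counts of genes that rose or fell are therefore descriptions. Of 14 general macrophage genes tested, 8 rose and 0 fell in FED-HFD vs FED-CTRL (median log2FC 0.88), and 0 rose and 9 fell in CR20-HFD vs FED-HFD (median -1.03). Adgre1 (F4/80) had a log2FC of 1.79 and -2.08, and Cd68, a lysosomal protein of phagocytes, of 2.11 and -2.25. The complement genes C1qa, C1qb and C1qc, Mertk and Aif1 of this list were not called in either. Of 12 genes of recruited and lipid-associated macrophages, 9 rose and 0 fell in FED-HFD vs FED-CTRL (median 2.18), and 0 rose and 10 fell in CR20-HFD vs FED-HFD (median -2.61). The lipid receptor gene Trem2 had 2.66 and -2.63, Gpnmb 3.28 and -3.83, and the elastase gene Mmp12 3.56 and -4.10. The summed level of the recruited list was 316 to 594 CPM in FED-CTRL, 976 to 10689 in FED-HFD, 128 to 760 in CR20-CTRL and 137 to 519 in CR20-HFD, with mouse 23 the highest. Without mouse 23, 6 general and 8 recruited genes rose, and 8 of each fell. Resident genes outside the 9 were mixed: of 14, the lectin gene Clec10a rose (1.26) and Cd209g fell (-0.75) with the diet in FED offspring, whereas in CR20-HFD vs FED-HFD Clec10a fell (-1.25) while Cd209f (0.80) and Cd209g (0.87) rose. Their median log2FC was -0.17 and 0.15. The plot of log2FC by list shows these values.

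Of 12 genes for growth factors, receptors and transcription factors of macrophages, 4 rose in FED-HFD vs FED-CTRL, among them Spi1, which codes for PU.1 (log2FC 1.69), Irf8 (0.98) and Csf1r, the receptor for colony-stimulating factor (0.77). In CR20-HFD vs FED-HFD 4 fell, with -1.78 for Spi1, -1.11 for Irf8 and -0.95 for Csf1r, and 3 rose: Gata6 (0.66), Id3 (0.61) and Klf4 (0.60). Csf1r is also in the general list. Of 11 Kupffer cell genes tested in eWAT, Hmox1, the haem oxygenase, rose (1.54) and then fell (-1.56), and Id3, which is on both lists, rose in CR20-HFD vs FED-HFD. Diet in CR20 offspring and dam feeding on the CTRL diet called 0 genes of these lists in edgeR, limma voom and DESeq2, with 0 to 3 genes of a list at an unadjusted p under 0.05. The interaction called 14 genes of these lists, 6 general and 7 recruited among them, all lower. Of all genes tested it called 2.34% lower. Without the 5 libraries left out by Apoa1 or Adam7 it called 0 of these genes. In that fit it also called 0 over all genes, against 387 in the main fit.

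Signals of other cells varied over the same libraries. In FED-HFD, the summed adipocyte level was 9489 to 25275 CPM, against 23639 to 27454 in FED-CTRL and 24293 to 28960 in CR20-HFD, although 0 of the 6 adipocyte genes were called by edgeR (2 and 1 at an unadjusted p under 0.05). Mesothelial and lymphocyte lists had 0 of 4 and 0 of 5 called by edgeR, with 0 at an unadjusted p under 0.05. The hepatocyte genes Apoa1 and Ttr were called in both comparisons with FED-HFD, and so was Oit3 of the liver sinusoidal endothelial list (log2FC 2.20 and -2.74). In CR20-HFD vs FED-HFD, Cyp2e1 (3.28) of the hepatocyte list and Ccl21a (7.97) of the lymphatic endothelial list were also called. The part of these signals in the result for Mrc1 was not tested. Without the 5 libraries, which were chosen by Apoa1 and Adam7 alone, the log2FC of Mrc1 was 0.76 (adjusted p = 0.028 in edgeR) and -1.14 (adjusted p = 0.00396 in edgeR).

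**Figure D3:**
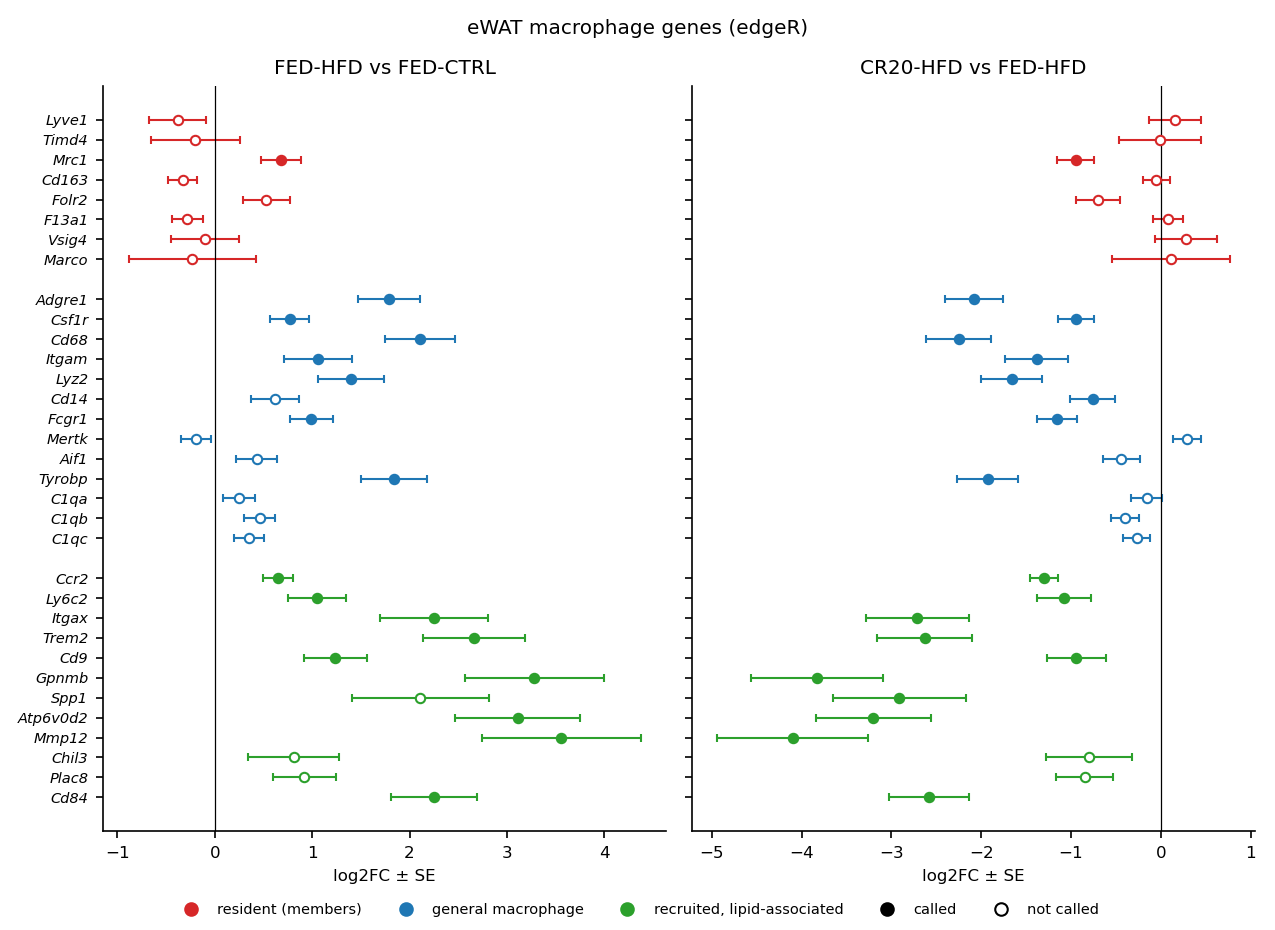
log2FC of each gene in eWAT by gene list, for the diet comparison in FED offspring and for CR20-HFD vs FED-HFD, which share the FED-HFD mice. Points are the estimates and bars the SE. The 8 resident macrophage genes tested have medians of -0.21 and 0.04, general macrophage genes 0.88 and -1.03, and recruited and lipid-associated genes 2.18 and -2.61.

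Across the 24 eWAT libraries, the closest pair of resident macrophage genes by correlation of log2 CPM was Mrc1 and Folr2. Correlations here are descriptions, since the libraries share groups, depth and single mice. These genes had r = 0.91, both over all libraries and within groups. Mrc1 followed the mean of the general list (r = 0.87) and of the recruited list (r = 0.80) and ran against the adipocyte list (r = -0.65). The genes most like Mrc1 among 15963 were Tlr7, a sensor of single-stranded RNA (r = 0.94), Csf1r (0.94) and Abi1 (0.93). Lyve1 and Timd4 had r = 0.74, Timd4 and Marco 0.73, and Lyve1 and F13a1 0.65, whereas Mrc1 had -0.11 with Lyve1 and -0.16 with Timd4. Vsig4 had 0.61 with Timd4, 0.53 with Lyve1 and 0.51 with Marco, but 0.13 with both Cd163 and F13a1, 0.27 with Folr2 and 0.16 with Mrc1. Cd163 and F13a1 had r = 0.50, and with Marco they had 0.10 and -0.25, so the 6 genes other than Mrc1 and Folr2 did not all follow each other. Cd163 and Lyve1 had -0.40 and -0.39 with the recruited list.

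Timd4 and Marco also followed genes of other cells. Timd4 had r = 0.69 with the lymphocyte list and 0.62 with the mesothelial list, and Marco 0.77 and 0.54. Vsig4 had 0.61 and 0.31 in the same order. With the list of other Kupffer cell genes, Timd4 had 0.66, Marco 0.72 and Vsig4 0.70. The part of other cells in these levels was not tested. The genes most like Timd4 were Gbp2b, an interferon-induced GTPase (r = 0.94), and 2 genes without a name in the annotation, ENSMUSG00000079190 (0.91) and ENSMUSG00000079808 (0.90). F13a1 was most like Cbr2 (0.76), Cd209b and Retnla (both 0.75), and Cd163 most like Vps26b (0.81), Slf1 (0.78) and Pigg (0.77). Folr2 followed Mrc1 (0.91), Pals2 (0.88) and Csf1r (0.87), and Lyve1 followed Mitd1 (0.75), P2ry13 (0.74) and Gm32618 (0.74).

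**Figure D4:**
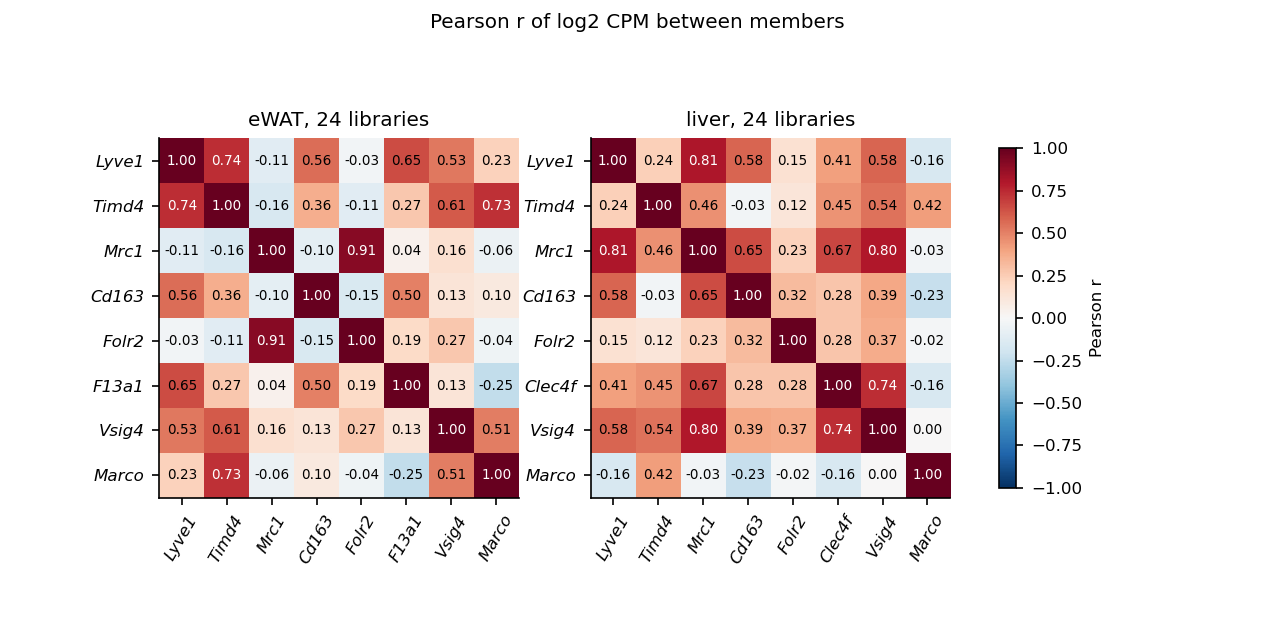
Pearson correlation of log2 CPM between resident macrophage genes, over 24 eWAT libraries and 24 liver libraries. In eWAT, Mrc1 and Folr2 are the closest pair (0.91). In liver Marco has -0.16 with Clec4f, 0.00 with Vsig4 and 0.42 with Timd4.

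In liver, Marco was the member called. It was at 3.64 to 18.6 CPM (median 9.5) in CR20-CTRL and 12.6 to 42.7 (median 26.8) in CR20-HFD. In the FED offspring it was at 9.72 to 26.9 (median 13.1) in FED-CTRL and 19.9 to 35.9 (median 26.4) in FED-HFD. Of the CR20-HFD mice, 5 of 6 were above all CR20-CTRL mice. Marco rose 2.56-fold in CR20-HFD vs CR20-CTRL (log2FC 1.35, SE 0.311, adjusted p = 0.0433 in edgeR, exact permutation p = 0.00649). This is 1 of 8 resident macrophage genes, where 0.138% of the 13787 genes tested were called higher, 0.384% lower and 0.522% in either direction. FED-HFD vs FED-CTRL gave 0.86 for Marco (SE 0.307, adjusted p = 0.519 in edgeR, exact permutation p = 0.013), and 0 of the 8 were called by edgeR, limma voom or DESeq2 (2 at an unadjusted p under 0.05), against 0.109% of all genes (0.029% higher and 0.0798% lower). The interaction for Marco was 0.50 (SE 0.433, adjusted p = 0.999 in edgeR), so the diet effects of FED and CR20 offspring are not shown to differ. CR20-HFD vs FED-HFD gave 0.01 and CR20-CTRL vs FED-CTRL -0.49, neither called, with 0% of all genes called by edgeR in both (493 and 299 at an unadjusted p under 0.05). The Marco call was held in 10 of 24 fits that each left out 1 mouse, with a log2FC of 1.18 to 1.59 and an adjusted p of 0.0153 to 0.129 in edgeR. The study's own test, limma voom with quality weights, called Marco (log2FC 1.33, adjusted p = 0.00618), as did DESeq2 (1.35, adjusted p = 0.00384). The call was lost on the 12 libraries compared alone (adjusted p = 0.272 in edgeR) and with voom without weights (adjusted p = 0.056). It was lost without FED-HFD mouse 13 or 23, FED-CTRL mouse 16 or 42, CR20-HFD mouse 6, 7, 31, 45 or 46, and CR20-CTRL mouse 4, 5, 47, 48 or 49.

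The Kupffer cell genes with the highest levels did not pass the test. Clec4f was at 143 to 215 CPM (median 169) in FED-CTRL, 109 to 269 (median 190) in FED-HFD, 117 to 331 (median 165) in CR20-CTRL and 130 to 226 (median 220) in CR20-HFD. Its log2FC was 0.10 (SE 0.238) in FED-HFD vs FED-CTRL and -0.04 (SE 0.238) in CR20-HFD vs CR20-CTRL. Vsig4 was at 27.2 to 32.9, 16.6 to 34.7, 22.4 to 57.4 and 25.4 to 38.7 CPM in the same order of groups, and Timd4 at 11 to 13.9, 10.1 to 18.6, 7.95 to 19.9 and 10.5 to 17.9 CPM. The groups of all 3 overlapped. Of 12 other Kupffer cell genes, 0 were called by edgeR in CR20-HFD vs CR20-CTRL (3 at an unadjusted p under 0.05, median log2FC 0.21, beside -0.00 over all genes and -0.02 over the 8 resident macrophage genes), and the growth factor Gas6 (-0.71, adjusted p = 0.0431 in edgeR) fell among 6 other resident genes. Of the hepatocyte list, Cyp3a11, a drug-metabolising enzyme, fell (-1.41, adjusted p = 0.0438 in edgeR), and its part in the Marco values was not tested.

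Cd163, the liver member with the largest log2FC in FED-HFD vs FED-CTRL, was at 0.762 to 3.72 CPM (median 2.57) in FED-CTRL and 0.145 to 1.89 (median 0.86) in FED-HFD. CR20-CTRL was at 1.17 to 3.2 (median 1.99) and CR20-HFD at 0.842 to 3.21 (median 2.11). The log2FC was -1.33 (SE 0.43) and was not called (adjusted p = 0.415 in edgeR, exact permutation p = 0.0281), with 699 counts behind the 24 libraries. CR20-HFD vs FED-HFD gave 1.07 for Cd163 (unadjusted p = 0.0214 in edgeR) and the interaction 1.27 (unadjusted p = 0.0419 in edgeR), neither called. Over the 24 liver libraries Cd163 had r = 0.72 with the list of liver sinusoidal endothelial genes. The part of these cells in the Cd163 values was not tested. Mrc1 in liver was at 21.8 to 31.3, 11.3 to 29.1, 16.3 to 38.7 and 19.2 to 37.3 CPM in FED-CTRL, FED-HFD, CR20-CTRL and CR20-HFD, and its log2FC of -0.21 in FED-HFD vs FED-CTRL (SE 0.218, adjusted p = 1 in edgeR) was not called.

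**Figure D5:**
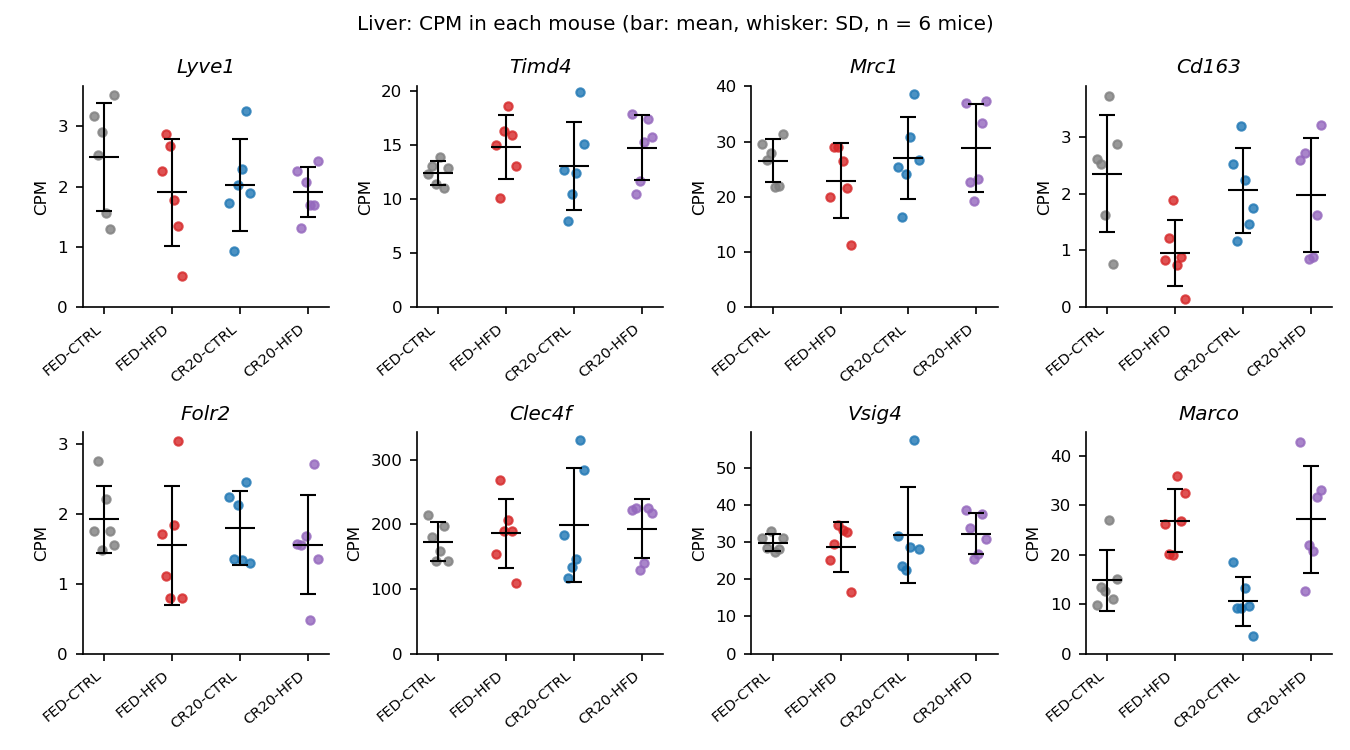
CPM of the 8 resident macrophage genes tested in liver, 1 point per mouse and 6 mice per group. Marco in CR20-HFD (12.6 to 42.7 CPM) lay above CR20-CTRL (3.64 to 18.6 CPM) in 5 of 6 mice, and Clec4f, Vsig4 and Timd4 overlapped between groups.

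Over the 24 liver libraries Clec4f was most like Cd5l, a protein secreted by Kupffer cells (r = 0.90), Gngt2 and Cd300ld (both 0.87), with r = 0.74 with Vsig4. With the list of blood cell genes, Clec4f had r = 0.83 (0.88 within groups) and Vsig4 0.66 (0.72 within groups). CR20-CTRL mouse 4 had the highest level of both genes and the highest sum of the 6 blood cell genes, 656 CPM, against 71.5 in the lowest mouse of its group, and their part in these levels was not tested. Vsig4 was most like Kctd12 (0.82), Mrc1 (0.80) and Cd79a (0.79). Lyve1 and Mrc1 had r = 0.81, and Mrc1 had 0.77 with the list of liver sinusoidal endothelial genes, cells that also use Mrc1 and Lyve1. Marco had -0.16 with Clec4f and 0.00 with Vsig4, but 0.42 with Timd4. With Lyve1, Mrc1, Cd163 and Folr2 it had -0.23 to -0.02. Its r was 0.60 with the list of other resident macrophage genes and 0.32 with that of other Kupffer cell genes. With the lymphocyte list it was also 0.60, and the part of lymphocytes in the Marco values was not tested. The genes closest to Marco were Cd74, the invariant chain of antigen presentation (0.87), Evl and Abhd4 (both 0.84).

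In pituitary 0 of the 3 genes tested were called by edgeR, limma voom or DESeq2, and edgeR called 0% of 16657 genes in each comparison, with 1127 to 2887 at an unadjusted p under 0.05. Mrc1 was at 2.16 to 5.98 CPM (median 3.46) in FED-CTRL, 2.58 to 5.28 (median 3.41) in FED-HFD, 1.8 to 5.73 (median 4.56) in CR20-CTRL and 3.19 to 5.51 (median 4.19) in CR20-HFD. The groups overlapped, and log2FC values lay between -0.04 and 0.23. One pituitary member passed an unadjusted p of 0.05, F13a1 with a log2FC of -1.22 in CR20-HFD vs CR20-CTRL (SE 0.537, adjusted p = 0.646 in edgeR), on 220 counts over 24 libraries.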

How the data were processed

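RNA from pituitary, liver and eWAT of 24 male mice was sequenced as paired-end reads from stranded libraries. The authors trimmed reads with Trimmomatic after FastQC, aligned them to GRCm39 with STAR and counted them per gene with featureCounts of Subread, and the deposited values are raw counts for 55416 genes. The strand setting of the counting is not given in the sources used here. Every count column was used. Gene names (54749 of the 55416) and exon lengths came from GENCODE M39.

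Genes were filtered by group and tested in edgeR 4.0.16 (R 4.3.3) with TMM scaling and the quasi-likelihood test, on the 24 libraries of a tissue with a mean per group. Adjusted p values are Benjamini-Hochberg over all genes tested. limma 3.58.1 voom (the study's test, with quality weights) and DESeq2 1.42.0 were alternatives, beside other scaling, filters, thresholds, an animal-number covariate, robust fitting, fits of the groups compared and fits that left out 1 mouse. CPM are counts per 1000000 after TMM scaling within a tissue, unless given as library totals. log2 CPM have a prior count of 2. Exact permutation tests used all 924 divisions of 12 mice (Python 3.11.15). The steps were tested on simulated data.

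Tissues were compared unpaired. The labels give the same animal number to the 3 tissues of a mouse. Over 12355 genes, the deviations from the group means of such libraries correlated with a median r of 0.0506 to 0.0726 over the 3 pairs of tissues. Named were all 9 members, list genes called (at most the 4 of a list with the smallest p, or those giving its range), and for each member the 3 genes most like it in the tissue where it was highest. The members and lists were chosen with earlier results of these data known. Some lists share genes, and 1 general macrophage gene counted in its list is not reported here by name or drawn.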

Additional observations from a re-analysis of the deposited data

Results flagged for a closer look

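In 6 of 76 groups of 6 mice, 1 mouse lay far from the other 5 in the level of a resident macrophage gene (Dixon's test of the gap to the nearest mouse over the group's range, on log2 CPM). Chance alone gives about 1 in 20, or 3.8 of the 76. FED-HFD mouse 23 was high in eWAT for Mrc1, at 8.33 log2 CPM (321 CPM, the others 124 to 173), and for Folr2, at 4.79 log2 CPM (27.5 CPM, the others 8.78 to 12.5). It also had the highest summed level of recruited macrophage genes, 10689 CPM. The same mouse was high for F13a1 in pituitary, at 0.06 log2 CPM, on 21 counts. FED-HFD mouse 40 was high for Lyve1 in eWAT, at 5.97 log2 CPM (62.7 CPM, the others 19.7 to 26). CR20-CTRL mouse 4 was low for Cd163 in eWAT, at 4.98 log2 CPM (31.5 CPM, the others 43.2 to 51.1), where its library held epididymis RNA. It was high for Vsig4 in liver, at 5.85 log2 CPM (57.4 CPM, the others 22.4 to 31.5), where it also had the highest sum of blood cell genes, 656 CPM.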

How the results depend on the processing

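Counts of members called changed under several settings. In eWAT, FED-HFD vs FED-CTRL went from 1 to 0 (log2FC of at least 1, limma voom with quality weights, only the groups compared) and to 0 to 2 without 1 mouse. CR20-HFD vs FED-HFD went from 1 to 0 (log2FC of at least 1) or 2 (voom without weights, DESeq2, its size factors, over 1 CPM, without the 5 libraries, an alternative chosen after seeing the data), and to 1 to 2 without 1 mouse. The added gene was Folr2, called without FED-HFD mouse 10, 11 or 40, CR20-CTRL mouse 5 or 48, or CR20-HFD mouse 6. The interaction went from 0 to 1 (DESeq2) and 0 to 1 without 1 mouse, Mrc1 being called without FED-HFD mouse 10, 11 or 40 or CR20-HFD mouse 6. The CR20 diet comparison in liver went from 1 to 0 (voom without weights, only the groups compared) and 0 to 1 without 1 mouse. Of 95 member log2FC values, 29 changed sign in an alternative other than leaving out a mouse, and none of the 29 was called.

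Genes of the related lists in the eWAT interaction went from 14 to 6 (voom with weights) or 0 (voom without, or without the 5 libraries), and 0 to 19 without 1 mouse. For the CR20 diet comparison in liver they went from 1 to 0 (log2FC of at least 1, voom without weights, no filter, only the groups compared) or 2 (DESeq2), and 0 to 1 without 1 mouse. In pituitary they went from 0 to 1 without a filter in FED-HFD vs FED-CTRL (0 to 2 without 1 mouse) and CR20-HFD vs FED-HFD.

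Over all genes in eWAT, FED-HFD vs FED-CTRL gave 1278, and 750 at a log2FC of at least 1 (656 to 1545 without 1 mouse, lowest without FED-HFD mouse 23). CR20-HFD vs FED-HFD gave 1554, 877 at that limit and 2385 at an adjusted p under 0.05 alone (861 to 1826, lowest without the same mouse). DESeq2 called 1 gene for CR20-HFD vs CR20-CTRL, and 150 for CR20-CTRL vs FED-CTRL, where edgeR called 0. The interaction gave 387, 177 (voom with weights), 0 (voom without), 820 (DESeq2) and 0 (without the 5 libraries), and 0 to 722 without 1 mouse. In liver, FED-HFD vs FED-CTRL gave 15, 52 (voom with weights), 50 (DESeq2) and 24 (only the groups compared), and 4 to 29 without 1 mouse. CR20-HFD vs CR20-CTRL gave 72, 121, 36 (voom without weights), 150 and 12 in turn, and 31 to 104. CR20-HFD vs FED-HFD gave 0 and 1 (DESeq2), and 0 to 1. In pituitary the main edgeR fit called 0 in every comparison. FED-HFD vs FED-CTRL gave 9 by DESeq2 and 44 without a filter (0 to 28 without 1 mouse), CR20-HFD vs CR20-CTRL 1 and 7, CR20-HFD vs FED-HFD 19 without a filter, and CR20-CTRL vs FED-CTRL 72 (voom with weights), 54, 22 and 1 (only the groups compared), and 0 to 118. The cause of these moves was not tested.

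Between tissues, 26 of 27 comparisons passed, and 26 with the replicate block that pairs tissues by mouse, 26 by RPKM, 25 with control-diet mice and 27 by library totals (chosen after seeing the data). RPKM divides the CPM of a gene by the same exon length in each tissue, so it is not a separate check. Within a tissue no paired analysis was possible because the groups hold different mice. In pituitary 6 of the 9 genes had too few counts to test, although its libraries were the deepest of the 3 tissues by median.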
